A study of Mus musculus with 14 samples.

Results

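WDR5 was compared between 2 untreated leukemia cell cultures by chromatin immunoprecipitation and sequencing (ChIP-seq). A WDR5 peak is a stretch of the genome that a peak caller marked as enriched in the immunoprecipitated DNA. All 48263 WDR5 peaks that the authors listed on the 19 autosomes in the solvent controls were used, out of 532629 peaks in the 10 lists of the series. The MAF9 list held 14289 of them and the Mll1 flox list 33974.

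Both cultures were mouse bone marrow cells transformed by transduction with the MLL-AF9 fusion. The first, MAF9 cells, had received DMSO as the solvent for MM-401, an inhibitor of the MLL1 and WDR5 interaction. The second carried MLL1 flox/flox alleles and ER-Cre+/- as well as MLL-AF9, and had received ethanol (EtOH) as the solvent for 4-hydroxytamoxifen (4OHT). Neither control had received 4OHT, which triggers the deletion of floxed Mll1. Treated cultures of the same lines are used further below, MAF9 cells with 20 µM MM-401 and Mll1 flox cells with 400 nM 4OHT to delete Mll1. Treatments lasted 2 days, the medium held 15% serum and 10 ng/ml interleukin-3, and each ChIP used 15 µl of antibody. The WDR5 antibody was made in the study's laboratory. The labels do not say how many mice or transductions stood behind a culture.

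WDR5 is a core subunit of the methyltransferase complexes built around MLL1 and its relatives, which place methyl groups on lysine 4 of histone H3. It also takes part in other chromatin complexes, so its peaks need not mark MLL1. Dimethylation of that lysine (H3K4me2) is found at promoters and enhancers, and it was mapped in the same 2 conditions.

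Each condition had 1 library per antibody, so no replicate error existed and no test between conditions was made. The lists give positions without height, score or read count. The depth behind each peak is therefore unknown, and a peak missing from a list may be a weak site as well as an absent one. Ranges in brackets after a share are 95% Wilson intervals. They reflect counting error alone and take each peak as an independent observation, which nearby peaks are not. Cell line and experiment changed together and cannot be told apart. Peaks that shared at least 1 bp with a peak of the other control are called shared, and all others line-specific, as DMSO-only or EtOH-only. Positions are given as deposited, in mm9 per the submitters' processing notes. Genes were not assigned and sequences are not shown, because the tables at hand belong to another build.

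The EtOH list was longer and made of narrower peaks. Its median width was 125 bp against 175 bp in DMSO, and 35.6% of its peaks were at most 100 bp wide against 23.3%. The EtOH peaks covered 5.79 Mb and the DMSO peaks 3.13 Mb. The H3K4me2 lists were close in size, with 102640 peaks over 95.5 Mb in DMSO and 98735 peaks over 98.9 Mb in EtOH.

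The first question was how much of the WDR5 map the lines had in common. Of the DMSO peaks, 4965 of 14289 were shared, or 34.7% (34.0 to 35.5%). Of the EtOH peaks, 5048 of 33974 were shared, or 14.9% (14.5 to 15.2%). This left 9324 DMSO-only and 28926 EtOH-only peaks. A large part of the DMSO-only peaks had an EtOH peak nearby. Counting distances up to 2 kb, 63.2% of the DMSO peaks and 31.3% of the EtOH peaks had a partner. In all, 4061 DMSO-only and 5600 EtOH-only peaks lay within this reach, while 5263 and 23326 lay beyond it. Only 2.48% of the DMSO peaks were more than 100 kb from any EtOH peak, whereas 19.5% of the EtOH peaks were that far from any DMSO peak. Reducing the EtOH list to its 14289 widest peaks, none under 150 bp, brought the shared part to 27.7% of DMSO and 27.4% of EtOH peaks.

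There were 5243 overlapping pairs, of which 4357 joined 1 peak of each list and nothing else. The overlap covered 50% or more of both peaks in 48.1% of these. Their centres lay a median of 62.5 bp apart, a distance that the overlap rule itself keeps short for peaks of median width 250 bp in DMSO and 225 bp in EtOH. The DMSO peak was the wider one in 51.1% of pairs and the EtOH peak in 43.0%. Width itself was poorly preserved between the lines. Across the 4357 pairs Spearman's rho of the 2 widths was 0.15, as a description over pairs that come from the same 2 libraries. A total of 258 DMSO peaks met 2 or more EtOH peaks, and 182 EtOH peaks met 2 or more DMSO peaks.

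The position of a WDR5 peak relative to H3K4me2 separated the lists. EtOH peaks inside H3K4me2 of their own condition were shared in 26.0% of cases (25.4 to 26.7%), and those outside it in 1.35% (1.18 to 1.54%), or 208 of 15379. DMSO peaks were shared in 34.7% of cases inside their own H3K4me2 and in 35.2% outside it, or 551 of 1567, and these intervals overlapped. A split appeared in DMSO under other rules. An EtOH peak lay within 2 kb of 64.3% of DMSO peaks inside (63.5 to 65.1%) and 53.9% outside the mark (51.5 to 56.4%). DMSO peaks in H3K4me2 of both lines were shared in 35.7% of cases (34.8 to 36.5%), and those in H3K4me2 of neither in 21.0% (18.2 to 24.0%). Outside H3K4me2, 36.9% of the EtOH peaks lay more than 100 kb from any DMSO WDR5 peak.

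**Figure D1:**
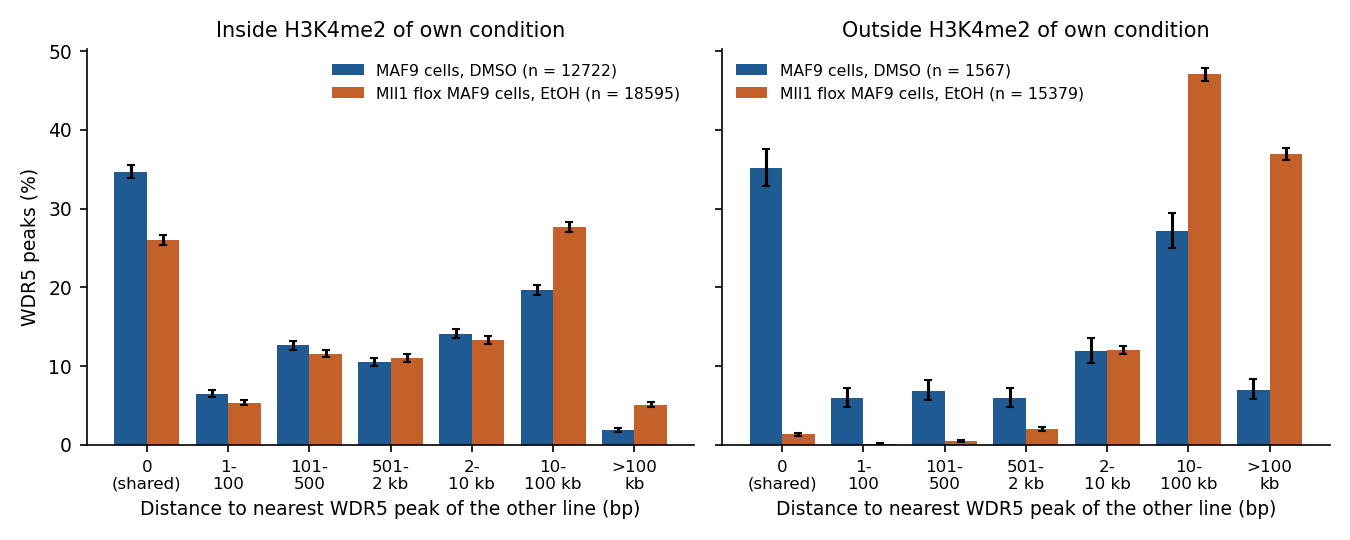
Share of WDR5 peaks (percent, vertical axis) by distance in bp to the nearest WDR5 peak of the other untreated line (horizontal axis), for DMSO (blue) and EtOH (orange) peaks inside (left) and outside (right) H3K4me2 of their own condition. Bars show 1 library each with 95% Wilson intervals. Inside H3K4me2, 34.7% of DMSO and 26.0% of EtOH peaks are shared, and outside it 35.2% of DMSO and 1.35% of EtOH peaks.

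Shared peaks had the larger median width in both lists, though 12.6% of them in DMSO and 12.7% in EtOH were at most 100 bp wide. A wider peak meets the overlap rule more easily. How much of the rise of sharing with width came from this rule was not tested. Shared DMSO peaks had a median width of 250 bp and DMSO-only peaks 150 bp. In EtOH the medians were 225 and 125 bp. No DMSO-only peak was wider than 925 bp, and all 92 DMSO peaks over 1000 bp were shared. In EtOH, 91 peaks over 1000 bp, or 90.1% of that width, were shared, and the widest EtOH-only peak measured 1575 bp. Restricting the count to peaks in H3K4me2 of both lines narrowed the distance between the lists at each width without closing it. There, peaks of 75 to 100 bp were shared in 18.1% of DMSO (16.7 to 19.7%) and 13.5% of EtOH cases (12.5 to 14.6%). For widths over 300 and up to 500 bp, 62.3% of DMSO (60.0 to 64.5%) and 49.6% of EtOH peaks (47.3 to 52.0%) were shared.

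The widest DMSO peaks show what the shared class looks like at its upper end. The widest, chr17:34254126-34257000, measured 2875 bp and had 4 further DMSO WDR5 peaks within 10 kb. The next, chr17:56751526-56754050, measured 2525 bp and had 2 such neighbours. The others were chr8:125625576-125627800 with 2225 bp, chr7:88488751-88490950 with 2200 bp and chr11:48612851-48615025 with 2175 bp. All 5 overlapped a WDR5 peak and an H3K4me2 peak in each of the 4 conditions of the series, treated ones included. None of the 5 overlapped a DMSO MLL1 peak, and the nearest lay 810 bp away, at the chromosome 8 peak.

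H3K4me2 context was then compared between the classes. DMSO-only and shared DMSO peaks lay in H3K4me2 about equally often, whereas EtOH-only peaks did so far less often than shared EtOH peaks. In DMSO, 89.1% of line-specific (88.5 to 89.7%) and 88.9% of shared peaks (88.0 to 89.7%) overlapped H3K4me2 of their own condition, against 89.0% of the whole list. In EtOH, 47.6% of line-specific (47.0 to 48.1%) and 95.9% of shared peaks (95.3 to 96.4%) did so, against 54.7% of the whole list. The difference between line-specific and shared peaks was 0.201 percentage points in DMSO (-0.863 to 1.30) and -48.3 percentage points in EtOH (-49.1 to -47.5). The sign in DMSO depended on the rule, since widening the shared class to distances of 2 kb gave 86.3% for DMSO-only and 90.6% for shared peaks, and with H3K4me2 of EtOH they gave 89.2% and 96.1%. With the EtOH list reduced to its 14289 widest peaks, the EtOH-only share was 67.9% and the shared one 96.3%.

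H3K4me2 of both lines was then considered. Of the 9324 DMSO-only peaks, 84.6% were in H3K4me2 of both lines, 4.53% in that of DMSO alone, 4.67% in that of EtOH alone and 6.23% in neither. Over the whole DMSO list 85.8% were in both and 5.14% in neither, so the class was close to its list. The EtOH-only class was made of 2 large groups. Of the 28926 peaks, 42.1% were in H3K4me2 of both lines and 51.0% in neither, against 49.1% and 43.9% of the whole EtOH list. The remaining EtOH-only peaks were in H3K4me2 of EtOH alone (5.41%) or of DMSO alone (1.40%).

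Distance set these groups further apart. DMSO-only peaks outside H3K4me2 lay a median of 226 bp from it, and 61.8% of the 1016 were within 1 kb. EtOH-only peaks outside H3K4me2 lay a median of 14551 bp from it, 11.9% of the 15171 were within 1 kb and 56.7% were more than 10 kb away. Most EtOH-only peaks outside H3K4me2 of EtOH were outside the mark in the other cultures too, since 14534 EtOH-only peaks, or 50.2%, were in H3K4me2 of none of the 4 conditions.

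Width changed the picture for EtOH-only peaks. Among those of 75 to 100 bp, 35.0% were in H3K4me2 (34.1 to 35.9%), and the share rose to 86.4% in the class up to 300 bp (85.0 to 87.6%) and 87.6% in the class up to 500 bp (85.5 to 89.4%). Above this it was lower again, with 73.2% in the class up to 1000 bp (67.8 to 78.0%) and 4 of 10 above 1000 bp. Shared EtOH peaks stayed between 94.1% and 97.7% in every width class. DMSO-only peaks rose from 85.5% in the narrowest class to 77 of 77 above 500 bp, and in each class up to 1000 bp their share was above that of shared DMSO peaks, though not always by more than the intervals. At 75 to 100 bp DMSO-only and shared peaks gave 85.5% (84.1 to 86.8%) and 78.9% (75.5 to 81.9%).

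**Figure D2:**
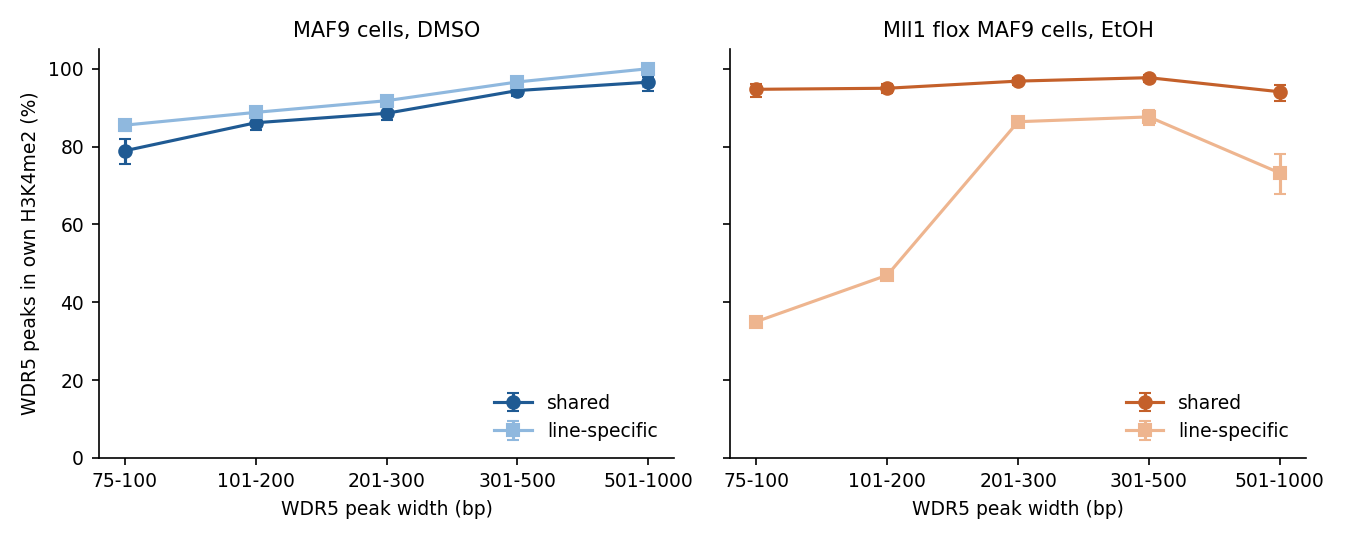
Share of WDR5 peaks in H3K4me2 of their own condition (percent, vertical axis) by peak width in bp (horizontal axis), for shared and line-specific peaks of DMSO (left) and EtOH (right). Points are 1 library each with 95% Wilson intervals. EtOH-only peaks start at 35.0%, reach 87.6% in the class up to 500 bp and are at 73.2% in the class up to 1000 bp, while the other classes stay at or above 78.9%.

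A further difference concerned where in an H3K4me2 peak WDR5 sat. Shared DMSO peaks lay at the border of the mark or in a short break within it more often than DMSO-only peaks. Among peaks in H3K4me2 peaks of at least 1 kb, 29.6% of shared DMSO peaks had their centre in the outer 10% of its length at either end (28.2 to 31.1%), against 13.7% of DMSO-only peaks (12.9 to 14.5%). In EtOH the order was the opposite, with 7.71% of shared (6.97 to 8.52%) and 10.3% of EtOH-only peaks (9.74 to 10.8%). The base was any overlap of at least 1 bp, so a centre counted as outer can lie beyond the end of the mark. Such peaks may also be part of the next count. WDR5 centres that H3K4me2 did not cover, but that had H3K4me2 within 1 kb on both sides, made up 20.6% of shared DMSO peaks (19.5 to 21.7%), 8.55% of DMSO-only peaks, 3.29% of shared EtOH peaks and 1.93% of EtOH-only peaks. The whole lists gave 12.7% in DMSO and 2.13% in EtOH. Of the 1022 shared DMSO peaks of this kind, 990 (96.9%) overlapped H3K4me2 in EtOH, near the 96.1% of all shared DMSO peaks. The H3K4me2 peak around a WDR5 peak was narrower in DMSO, with a median of 2150 bp against 3400 bp in EtOH. These medians are over WDR5 peaks, so an H3K4me2 peak that held several counted several times. Whether the H3K4me2 calls of the 2 libraries differed in resolution was not tested.

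Because single peaks are short, H3K4me2 of both lines was merged into 113704 domains and WDR5 was counted per domain. At this scale the lines had more in common. DMSO WDR5 was present in 10871 domains and EtOH WDR5 in 13290, and 6518 held both. These were 60.0% (59.0 to 60.9%) of the domains with DMSO WDR5 and 49.0% (48.2 to 49.9%) of those with EtOH WDR5. The median width of domains with WDR5 of both lines was 3700 bp. It was 1900 bp with DMSO WDR5 alone, 2275 bp with EtOH WDR5 alone and 250 bp with none. In 98.9% of the domains with both, H3K4me2 itself was called in both lines, against 45.04% of all domains. This share was 90.99% with DMSO WDR5 alone, 90.03% with EtOH WDR5 alone and 36.13% with none. A high share was thus not particular to domains with WDR5 of both lines.

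The share of WDR5 domains that also held WDR5 of the other line grew with domain width. A domain of up to 500 bp with DMSO WDR5 also held EtOH WDR5 in 17.7% of cases (14.8 to 21.0%), and one over 5000 bp in 85.3% (83.8 to 86.7%). The reverse shares were 11.9% (9.92 to 14.2%) and 71.3% (69.6 to 72.9%). Wide domains also held WDR5 more often in the first place. EtOH WDR5 was in 1.27% of all domains up to 500 bp and in 77.7% of those over 5000 bp. DMSO WDR5 was in 0.855% and 64.9%. In the widest class the 85.3% and 71.3% were thus moderately above the 77.7% and 64.9% of all such domains. The intervals of the latter, 76.3 to 79.0% and 63.4 to 66.4%, did not reach those of the former. In the narrowest class the 17.7% and 11.9% were far above the 1.27% and 0.855% of all such domains. Many line-specific peaks thus shared a domain with WDR5 of the other line, namely 4138 of the 9324 DMSO-only peaks (44.4%) and 5810 of the 28926 EtOH-only peaks (20.1%). Among the line-specific peaks that lay in a domain at all, these were 47.3% of 8743 in DMSO and 41.0% of 14161 in EtOH. Over the 78.4 Mb marked in both lines there were 156 DMSO and 213 EtOH WDR5 peaks per Mb.

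**Figure D3:**
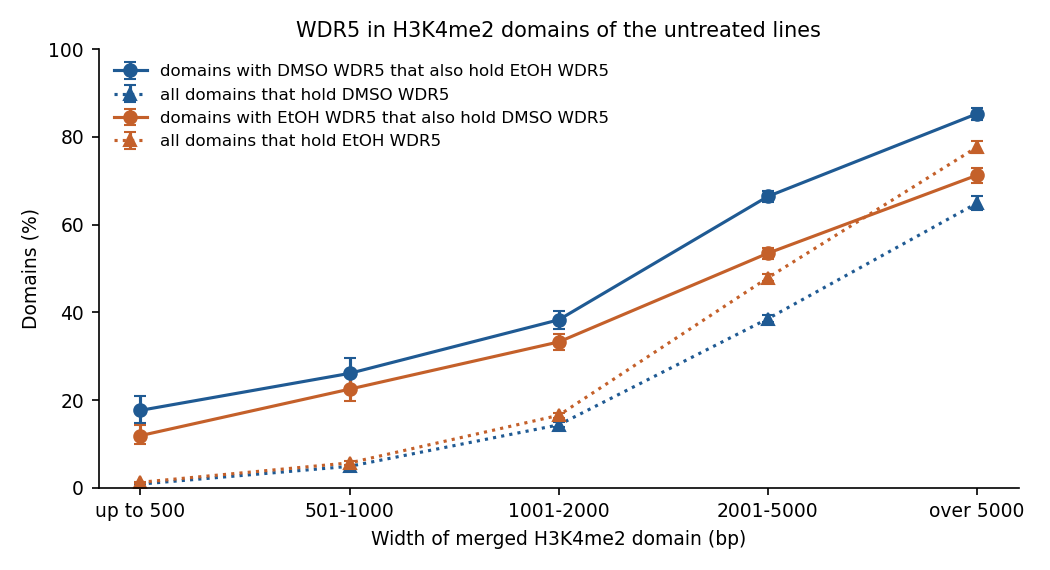
Share of merged H3K4me2 domains (percent, vertical axis) by domain width in bp (horizontal axis), with 95% Wilson intervals. Solid lines give domains with WDR5 of one line that also hold WDR5 of the other, and dotted lines all domains that hold WDR5 of a line. From the narrowest to the widest class the solid lines go from 17.7% to 85.3% for DMSO (blue) and from 11.9% to 71.3% for EtOH (orange).

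Local density was measured as the number of other WDR5 peaks of the same list within 10 kb. In DMSO it differed little between the classes. A neighbour was present at 49.8% of shared peaks (48.4 to 51.2%) and 47.3% of DMSO-only peaks (46.2 to 48.3%), against 48.1% of the whole list. In EtOH, 70.1% of shared peaks (68.9 to 71.4%) and 51.2% of EtOH-only peaks (50.7 to 51.8%) had a neighbour, against 54.0% of the whole list. The mean number of neighbours was 0.813 and 0.756 for the DMSO classes and 1.45 and 1.04 for the EtOH classes, shared first.

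The difference in EtOH followed H3K4me2. Inside the mark, EtOH-only peaks had a neighbour in 74.7% of cases (74.0 to 75.4%) and shared peaks in 71.3% (70.0 to 72.5%), so the order of the classes turned. Outside it the share was 30.0% for EtOH-only peaks (29.3 to 30.7%) and 43.8% for shared peaks (37.2 to 50.5%). A shared peak was within 10 kb of 25.8% of EtOH-only peaks in H3K4me2 and of 6.64% of those outside it. In DMSO the same quantity was 22.2% inside and 14.6% outside. When the shared class was widened to distances of 2 kb, a neighbour was present at 56.2% of shared and 34.2% of DMSO-only peaks in DMSO. The window mattered for the size of these shares, since with 50 kb the DMSO-only value was 76.7% and the EtOH-only value 82.5%. With the shortened EtOH list the shared and line-specific EtOH values were 48.8% and 43.1%.

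**Figure D4:**
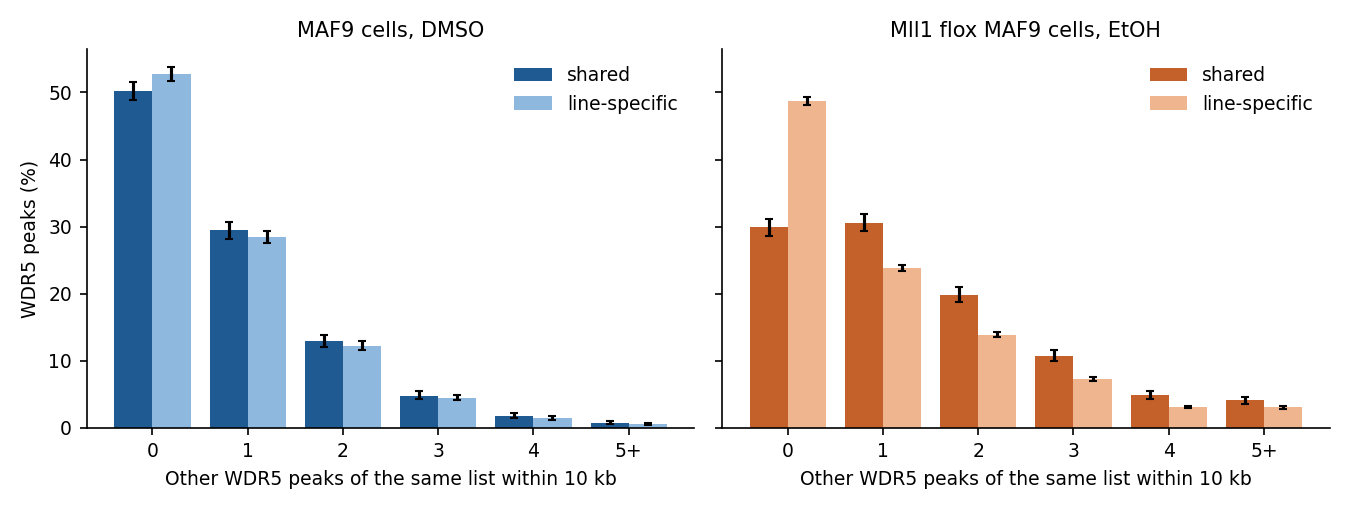
Share of WDR5 peaks (percent, vertical axis) by the number of other WDR5 peaks of the same list within 10 kb (horizontal axis), for shared and line-specific peaks in DMSO (left) and EtOH (right), with 95% Wilson intervals. The DMSO classes have nearly the same profile, while 29.9% of shared and 48.8% of EtOH-only peaks have no neighbour.

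The treated lists of the series allowed a further look at the same sites, because each came from the same line as its solvent control. They are not repeats of the controls, since MM-401 blocks the MLL1 and WDR5 interaction and 4OHT triggers the deletion of Mll1. The study reports loss of WDR5 from many loci after either. A peak missing from a treated list may thus be a treatment effect or a missed call, and which of these held was not tested. Shared peaks, which by definition had been called in 2 libraries, were found again more often than line-specific peaks. The MM-401 list overlapped 55.0% of shared (53.6 to 56.4%) and 32.5% of DMSO-only peaks (31.6 to 33.5%), against 40.3% of all DMSO peaks. The 4OHT list overlapped 51.0% of shared (49.7 to 52.4%) and 13.0% of EtOH-only peaks (12.7 to 13.4%), against 18.7% of all EtOH peaks.

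Taken as whole classes, line-specific peaks were called more often in the treated list of their own line than in that of the other line. For DMSO-only peaks the 4OHT list gave 19.1% (18.3 to 19.9%), against 30.3% of all DMSO peaks. For EtOH-only peaks the MM-401 list gave 6.30% (6.02 to 6.59%), against 13.5% of all EtOH peaks. The treated lists differ in length, with 17067 peaks under MM-401 and 40439 under 4OHT, so for DMSO-only peaks the shorter list gave the higher share. For EtOH-only peaks it was the longer list. Line-specific peaks were picked for absence from the control of the other line. A lower share in the treated list of that line is therefore partly set by the class rule. Shared peaks of both lines were found more often in the MM-401 list. The 4OHT list overlapped 51.3% of shared DMSO peaks (49.9 to 52.7%), and the MM-401 list 55.0% of shared EtOH peaks (53.6 to 56.3%).

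H3K4me2 again divided the EtOH-only class. Inside the mark 24.0% were found under 4OHT (23.3 to 24.7%), and outside it 3.14% (2.87 to 3.43%). DMSO-only peaks were found under MM-401 in 32.7% of cases inside and 30.6% outside, with overlapping intervals. Among the 422 DMSO-only peaks with H3K4me2 in DMSO but not in EtOH, 46.2% were found under MM-401 (41.5 to 51.0%) and 4.98% under 4OHT (3.28 to 7.49%), although 4OHT had the longer list. All 464 DMSO peaks in this context gave close values, 48.3% and 7.76%. Among the 435 DMSO-only peaks with H3K4me2 in EtOH but not in DMSO, 27.4% were found under MM-401 (23.4 to 31.7%) and 31.7% under 4OHT (27.5 to 36.2%), with overlapping intervals. All 832 DMSO peaks in that context gave 34.9% and 45.4%.

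Recurrence rose with width, and in both lists the intervals of the classes overlapped in the class over 500 and up to 1000 bp. Recurrence was counted by overlap as well, which a wider peak meets more easily, and the part due to this was not tested. EtOH-only peaks of 75 to 100 bp were found under 4OHT in 4.80% of cases (4.43 to 5.21%) and shared EtOH peaks of that width in 24.3% (21.1 to 27.8%). In the class over 500 and up to 1000 bp they were 85.6% (81.1 to 89.1%) and 88.1% (85.0 to 90.7%), and the intervals overlapped. In DMSO the narrowest peaks were found under MM-401 in 16.5% of line-specific and 28.3% of shared cases. In the class up to 1000 bp the DMSO shares were 67.5% (56.5 to 76.9%) and 77.7% (73.2 to 81.6%), with 77 line-specific peaks. Counting treated peaks up to 2 kb away raised the shares of all line-specific peaks to 57.3% in DMSO and 36.9% in EtOH. With the shortened EtOH list, 26.9% of EtOH-only peaks were found under 4OHT.

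**Figure D5:**
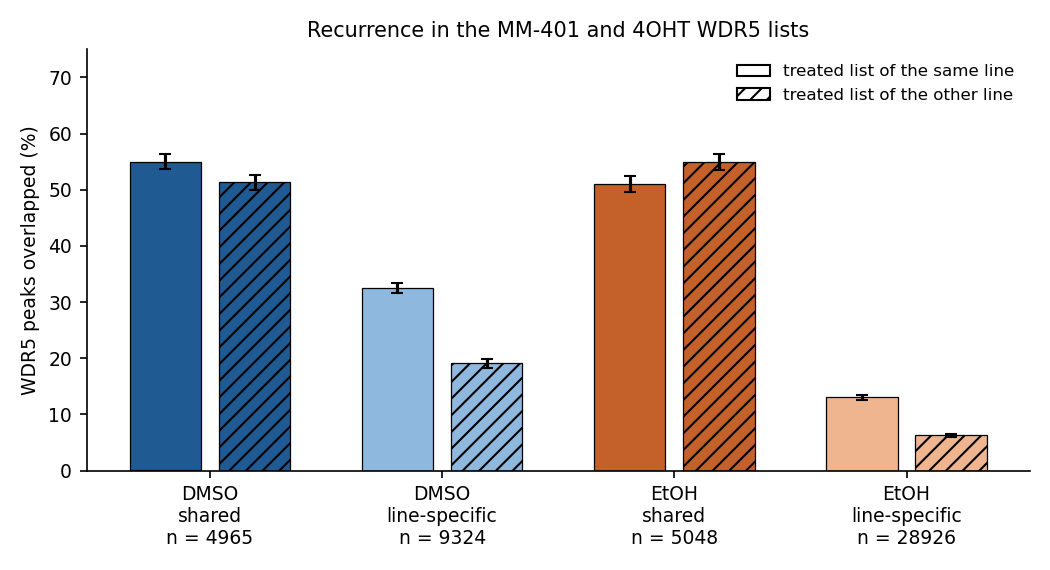
Share of WDR5 peaks overlapped in the treated WDR5 list of the same line (plain bars) and of the other line (hatched bars), in percent, for shared and line-specific DMSO and EtOH peaks, with 95% Wilson intervals. The treated lists are MM-401 for MAF9 and 4OHT for Mll1 flox cells. Line-specific peaks were picked for absence from the control of the other line. They are found more often in their own line, 32.5% against 19.1% in DMSO and 13.0% against 6.30% in EtOH.

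Wide line-specific peaks were few. Of the 77 DMSO-only peaks over 500 bp, all lay in H3K4me2 of DMSO, 67.5% were found under MM-401 (56.5 to 76.9%) and 58.4% under 4OHT (47.3 to 68.8%). Shared DMSO peaks over 500 bp were found in 81.8% and 81.4% of cases. Of the EtOH-only peaks over 500 bp, 217 lay in H3K4me2 of EtOH (72.1%) and 84 outside it, 86.0% were found under 4OHT (81.7 to 89.5%) and 27.9% under MM-401 (23.1 to 33.2%). Shared EtOH peaks over 500 bp were found in 522 of 580 (87.3 to 92.2%) and 402 of 580 cases (65.4 to 72.9%), so under 4OHT the intervals of the classes overlapped.

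The 84 wide EtOH-only peaks outside H3K4me2 of EtOH had no H3K4me2 in any of the 4 conditions. They were found under 4OHT in 80 of 84 cases (88.4 to 98.1%) and under MM-401 in 11 of 84 (7.47 to 21.9%). All 84 lay over 2 kb from any DMSO WDR5 peak, and 75 lay over 10 kb from H3K4me2. Chromosome 9 held 16 of the 84 (12.1 to 28.7%), against 4.66% of all EtOH peaks, and 8 of the 16 lay within its first 3.1 Mb.

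The widest DMSO-only peak, chr13:4608026-4608950, measured 925 bp, was in H3K4me2 of 3 conditions and 51 bp from it under 4OHT. Its nearest EtOH WDR5 peak was 154001 bp away, but a 4OHT peak lay 626 bp away. The DMSO-only peak chr1:58859076-58859925 measured 850 bp and overlapped both treated lists, with the nearest EtOH peak 17251 bp away. The DMSO-only peak chr8:97541476-97542325, of 850 bp as well, overlapped neither treated list and had the nearest EtOH peak at 10401 bp. The DMSO-only peak chr1:58026326-58027100, of 775 bp, was over 100 kb from WDR5 in each of the other 3 conditions and overlapped a DMSO MLL1 peak. The fifth, chr1:140859851-140860600, of 750 bp, was 176 bp from an EtOH peak. It was replaced by chr14:79841276-79842000, of 725 bp and 8026 bp from EtOH WDR5, when only peaks beyond 2 kb were ranked. Apart from the chromosome 13 peak, all of these lay in H3K4me2 of the 4 conditions.

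Of the 5 widest EtOH-only peaks, all of which overlapped 4OHT WDR5, just 1 carried the mark. This was chr7:87170776-87172350, of 1575 bp, which lay in H3K4me2 of all 4 conditions and 5026 bp from DMSO WDR5. The peak chr2:149126276-149127625, of 1350 bp, was 15951 bp from H3K4me2 in EtOH and also overlapped MM-401 WDR5. The peak chr9:3015076-3016325, of 1250 bp, had 27 other EtOH WDR5 peaks within 50 kb and was 1292626 bp from the nearest DMSO WDR5 peak. Both chr2:86427726-86428950 and chr2:98506451-98507675 measured 1225 bp, and they lay 411851 and 271626 bp from DMSO WDR5. The peaks at chr9:3015076-3016325 and chr2:98506451-98507675 overlapped a DMSO MLL1 peak. That MLL1 list is from MAF9 cells, whose DMSO WDR5 list had no peak at either position. How well reads can be placed at these positions was not examined.

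Windows of 100 kb rich in line-specific peaks were found with and without H3K4me2 in EtOH, and with it in DMSO. The window starting at position 172900001 of chromosome 1 held 10 DMSO-only peaks, yet both lists had 13 WDR5 peaks in it and all 13 DMSO peaks were in H3K4me2. The window from 139800001 on chromosome 5 also held 10 DMSO-only peaks, with 12 DMSO and 9 EtOH peaks in all. The window from 79700001 on chromosome 10 held 9, with 12 peaks in each list. For EtOH, the window from 3000001 on chromosome 9 held 27 EtOH-only peaks and no DMSO WDR5 peak. No H3K4me2 peak of any condition lay in it, while the MM-401 list had 3 WDR5 peaks there, the 4OHT list 9 and the DMSO MLL1 list 29. The window from 3000001 on chromosome 11 held 24 EtOH-only peaks beside 10 DMSO peaks, and 5 of its 25 EtOH peaks were in H3K4me2. The window from 80800001 on chromosome 10 held 21, of which 19 were in H3K4me2, beside 6 DMSO peaks.

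MLL1, the methyltransferase subunit, was mapped in MAF9 cells only, so for EtOH peaks the comparison crosses the lines. The DMSO MLL1 list overlapped 4.03% of shared (3.52 to 4.61%) and 280 of the 9324 DMSO-only peaks (2.68 to 3.37%), against 3.36% of all DMSO peaks. It overlapped 3.63% of shared (3.14 to 4.18%) and 1.36% of EtOH-only peaks (1.23 to 1.50%), against 1.69% of all EtOH peaks. The MM-401 MLL1 list gave 7.83% and 5.43% for the DMSO classes, against 6.26% of all DMSO peaks, and 6.68% and 2.61% for the EtOH classes, against 3.22% of all EtOH peaks. The 2 MLL1 lists came from different peak callers, so they are not compared with each other.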

How the data were processed

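ChIP-seq peak lists of WDR5, H3K4me2 and MLL1 were used as deposited, 1 library per condition and antibody. The deposited values are peak positions (chromosome, start, end) and hold no counts. The authors aligned reads with Bowtie to mm9, per the submitters' processing notes. All lists but that of DMSO MLL1 carry HPeak names and lie on a 25 bp grid, and were read as 1-based. The DMSO MLL1 list, for which the study describes MACS, was read as 0-based. For that list the study states a p-value cutoff, while the thresholds of the HPeak lists, filters and the use of input libraries are not given in the sources used here. Inputs were not analysed here.

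Overlap (at least 1 bp), distances, neighbours and Wilson intervals were computed with Python 3.11.15, numpy 2.4.6 and scipy 1.17.1 on autosomes, and figures with matplotlib 3.10.9. The overlap code was tested on simulated data and against bedtools 2.31.1. Distances count from the last base of one peak to the first of the next. Merged domains are the union of the DMSO and EtOH H3K4me2 peaks. The named positions are the 5 widest peaks of the shared DMSO and each line-specific class, the 5 widest line-specific peaks beyond 2 kb, and the 3 windows of 100 kb with the most line-specific peaks, chromosome 18 left out. Planned gene and sequence annotation was not made, as the tables at hand are of GRCm38. Comparisons and classes were chosen with earlier results of these data known. Alternatives changed the overlap rule, list length, window, H3K4me2 source and chromosomes.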

Additional observations from a re-analysis of the deposited data

Results flagged for a closer look

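The difference in H3K4me2 context between line-specific and shared WDR5 peaks drew attention because its size was far apart in the 2 lines. In DMSO the line-specific share was 0.201 percentage points above the shared one, with an interval from -0.863 to 1.30 that includes 0, and it was negative when the shared class was widened to 2 kb, when H3K4me2 within 1 kb was counted and with H3K4me2 of EtOH. In EtOH the difference was -48.3 percentage points, with an interval from -49.1 to -47.5. With 1 library per line the difference between the lines was not tested, and line and experiment cannot be told apart.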

How the results depend on the processing

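No paired analysis was possible because each condition has 1 library per antibody, and for the same reason no replicate could be left out. Of 53 recomputed shares, 10 moved by less than their interval and 43 by more, and the causes were not tested. All values are percent. With peaks up to 2 kb apart as shared, the shared part was 63.2 in DMSO and 31.3 in EtOH, own H3K4me2 reached 90.6 (shared) and 86.3 (DMSO-only) in DMSO and 94.3 and 36.7 in EtOH, a neighbour within 10 kb was found for 56.2 and 34.2 in DMSO and 77.0 and 43.6 in EtOH, and recurrence of line-specific peaks was 38.2 and 10.0. With the EtOH list shortened, the shared part was 27.7 and 27.4, EtOH-only H3K4me2 67.9, neighbours 51.2 for shared DMSO, 48.8 for shared EtOH and 43.1 for EtOH-only peaks, and recurrence 34.4 and 26.9. The shared part of DMSO and EtOH was 23.7 and 10.1 with 50% of the peak covered, 41.0 and 17.9 in the widest 50% of each list, and 39.9 and 16.7 after merging peaks up to 1 kb apart. Without chromosome 1 the EtOH value was 14.5. H3K4me2 up to 1 kb away gave 97.6 and 95.8 for shared and DMSO-only, and 97.7 and 53.8 for shared and EtOH-only peaks. H3K4me2 of the other line gave 96.1 for shared DMSO, 89.5 for shared EtOH and 43.5 for EtOH-only peaks. A 50 kb window gave neighbours at 78.7 and 76.7 in DMSO and 93.4 and 82.5 in EtOH. Treated peaks up to 2 kb away gave recurrence of 57.3 and 36.9. Chosen after seeing the data, peaks in H3K4me2 of both lines gave shared parts of 35.7 and 26.9 and EtOH-only recurrence of 23.8, and leaving out the first 3.1 Mb of chromosome 9, also chosen after seeing the data, left EtOH-only recurrence at 13.0. Depth is unknown, so sites missed for lack of reads cannot be separated from absent ones.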

Other observations

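On a coarser scale, the number of WDR5 peaks per 1 Mb window was ordered alike in both lines. Over 2323 windows Spearman's rho between the DMSO and EtOH counts was 0.87, and 0.90 for peaks in H3K4me2 of their own condition. Between all DMSO peaks and EtOH peaks outside H3K4me2 it was 0.64. These are descriptions over windows of the same 2 libraries, and the windows share the genome's local peak density.

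Chromosome 1 held 11.1% of DMSO-only peaks (10.5 to 11.7%), 10.3% of shared DMSO peaks (9.44 to 11.1%) and 10.8% of the whole DMSO list. It held 7.43% of EtOH-only peaks (7.13 to 7.73%), 10.3% of shared EtOH peaks (9.47 to 11.1%) and 7.85% of the whole EtOH list. Among the EtOH peaks on chromosome 1, 19.5% were shared, compared with 14.9% on all autosomes. The DMSO peaks on chromosome 1 did not show this, with 33.0% shared (30.7 to 35.4%) compared with 34.7% on all autosomes.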
